A study of Homo sapiens with 6 samples.

Results

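The 8 genes described here encode the catalytic subunits of the proteasome in their constitutive form (PSMB5, PSMB6 and PSMB7), the subunits that replace them in the immunoproteasome (PSMB8, PSMB9 and PSMB10), and the PA28 activator (PSME1 and PSME2). They were taken by gene symbol from 58174 genes listed in the expression files, and all 8 were among the 12428 genes that passed the expression filter, which kept a gene with 0.5 RPKM or more in 3 or more samples. RPKM is a read count divided by the length assigned to the gene and by the number of mapped reads of the sample. The cells were T24, an established human bladder cancer line. The study asked which genes change in these cells when UBC9 is depleted. UBC9 is the E2 enzyme that transfers the small protein SUMO to its substrates. Both groups carried a pLKO.1 lentiviral hairpin and were selected with puromycin: the 3 shRNA-NC samples expressed a scrambled control hairpin, and the 3 shRNA-UBC9 samples expressed 1 hairpin against UBC9. Since a single hairpin was used, a response to the hairpin and a response to the loss of UBC9 cannot be told apart. No source states whether the 3 samples of a group were separate cultures, so the p-values measure the spread between these samples.

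The proteasome degrades proteins in a barrel-shaped core whose inner rings hold the active sites. PSMB6 cuts after acidic residues, PSMB7 after basic residues and PSMB5 after hydrophobic residues. Interferon induces PSMB9, PSMB10 and PSMB8, which are built into newly made cores in the places of PSMB6, PSMB7 and PSMB5 respectively, and the resulting immunoproteasome favours peptide ends that suit MHC class I molecules. PSME1 and PSME2 form PA28, a ring that caps the core and opens its gate. PSMB8 and PSMB9 lie in the MHC class II region beside TAP1 and TAP2, whose products carry the peptides into the endoplasmic reticulum.

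The start regions of these genes were searched because interferon signals act on promoters through short elements. RefSeq promoter windows (GRCh38.p14, 250 bases before to 50 bases after an annotated start) were at hand for 6 of the 8 genes, PSMB5, PSMB8, PSMB9, PSMB10, PSME1 and PSME2, in 8 windows. The core letters of the interferon-stimulated response element, GAAANNGAA on either strand, were found in 4 of these 8 windows, 1 in each of 4 genes. Of all 35116 windows 8.11% held them, and of all 27305 genes with a window 9.86% did. All 4 matches, in PSMB8, PSMB10, PSME1 and PSME2, spelled the same 9 letters, GAAAGCGAA, which were present in 0.268% of all windows. These letters were counted after the matches had been seen. The stretches around the matches are shown 5′ to 3′ in the direction of transcription, with the match in capitals. A match on the opposite strand appears as its reverse complement, and TAP1, the neighbour of PSMB9, is shown for comparison.
PSMB8, second start, chr6:32844018-32844080, minus strand: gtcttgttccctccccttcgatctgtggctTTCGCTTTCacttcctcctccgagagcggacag
PSMB10, chr16:67936833-67936901, minus strand: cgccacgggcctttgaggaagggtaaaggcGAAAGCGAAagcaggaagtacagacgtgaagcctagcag
PSME1, chr14:24136189-24136218, plus strand: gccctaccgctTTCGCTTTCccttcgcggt
PSME2, chr14:24146620-24146649, minus strand: acctggggagtGAAAGCGAAagcccgggcg
TAP1, first start, chr6:32853793-32853867, minus strand: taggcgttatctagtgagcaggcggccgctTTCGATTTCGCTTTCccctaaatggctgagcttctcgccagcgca
TAP1, first start, chr6:32853758-32853787, minus strand: agcctgttcctGGGACTTTCcgagagcccc

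The capitals in the first TAP1 stretch mark 2 overlapping matches to GAAANNGAA on the opposite strand, and those in the second mark GGGANTTTC, the first 9 letters of the NF-kappaB consensus, which 1.28% of all windows held on either strand. PSMB9 and TAP1 are transcribed away from each other from RefSeq starts 488 bases apart. The TAP1 matches lay up to 369 bases (GAAANNGAA) and 424 bases (GGGANTTTC) before the PSMB9 start, beyond the window of PSMB9, in which neither motif was found. Counted from the start, the match in PSMB8 ran from -3 to 6, that in PSMB10 from -21 to -13, that in PSME1 from 7 to 15 and that in PSME2 from -28 to -20. PSMB8 has starts 632 bases apart, and only the window of its second start held the match.

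The other motifs searched were TTCNNNGAA, a STAT element that is its own reverse complement, and TGACNNNGC, the antioxidant response element core that NFE2L1 and NFE2L2 bind. TTCNNNGAA was present in 7.66% of all windows. Among the members it was found in the windows of the second starts of PSMB8 and PSMB5. TGACNNNGC was present in 13.3% of all windows, and in those of PSMB9, PSME1 and PSME2. Each match is a description of letters, and no binding was measured.

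**Figure D1:**
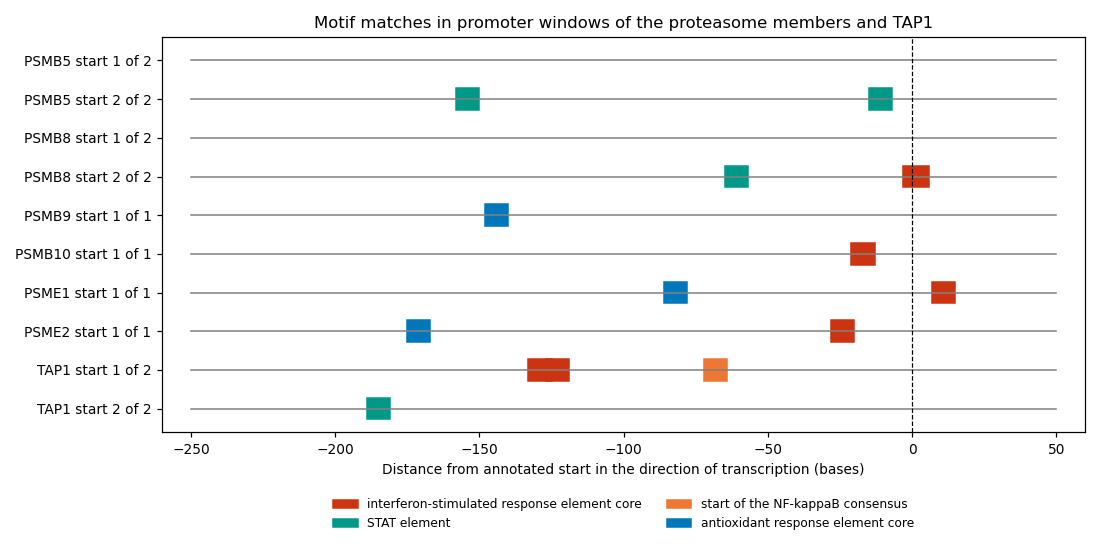
Matches to 4 motifs in the RefSeq promoter windows of 6 members and TAP1, plotted by distance in bases from the annotated start in the direction of transcription. Matches to the interferon-stimulated response element core (red) lie within 28 bases of the start in PSMB8, PSMB10, PSME1 and PSME2 and farther upstream in TAP1, while the PSMB9 window holds none.

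Among the members, PSMB8 and PSMB9 had the largest log2 fold changes after UBC9 knockdown, PSMB7 rose by a smaller factor, and no change was called for PSMB5, PSMB6, PSMB10, PSME1 or PSME2. In limma's test with Benjamini-Hochberg adjustment over all 12428 genes, 3 of the 8 genes were called higher in shRNA-UBC9 at an adjusted p below 0.05, where 18.8% of all tested genes were. None of the 8 was called lower, where 18.0% of all tested genes were. At an unadjusted p below 0.05 in the same limma fit, 4 of the 8 were higher and 0 were lower, where 23.8% and 23.2% of all tested genes were. The median log2 fold change of the 8 genes was 0.29, with a range from -0.12 to 1.16, against 0.005 over all tested genes. By the stricter rule for differentially expressed genes (DEGs), which also asks for an absolute log2 fold change above 1, only PSMB9 qualified among the 8, where 5.20% of all tested genes were DEGs that rose and 2.70% were DEGs that fell.

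Library depth, recovered from the steps of the RPKM values, was 28200000 to 36100000 reads, and the ranges of the groups overlapped. Each of the 4 leukocyte markers examined (PTPRC, CD3E, CD14 and LYZ), which would mark cells that carry immunoproteasomes constitutively, stayed below 1 RPKM in all 6 samples. The 4 genes together summed to 0.66 to 1.41 RPKM in shRNA-NC and 0.75 to 1.74 RPKM in shRNA-UBC9. Of 10 epithelial and bladder markers, the keratins KRT7, KRT8, KRT18 and KRT19 among them, 4 (CDH1, UPK1B, UPK2 and UPK3A) were below 1 RPKM in every sample. The sum of these 10 genes was 943 to 1116 RPKM in shRNA-NC and 430 to 568 RPKM in shRNA-UBC9, and the part of this difference in the results below was not tested. The mesenchymal markers VIM and CDH2 summed to 463 to 541 RPKM and to 325 to 517 RPKM.

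PSMB8, also called LMP7, is the immunoproteasome's chymotrypsin-like subunit and takes the place of PSMB5. The gene lies at 6:32840717-32844679 on the minus strand (GRCh38, GENCODE 44). PSMB8 was measured at 21.6, 32.2 and 22.1 RPKM in the 3 shRNA-NC samples and at 41.1, 58.3 and 43.9 RPKM in the 3 shRNA-UBC9 samples. Every shRNA-UBC9 sample lay above every shRNA-NC sample, and replicate 2 was the highest in both groups. The mean rose from 25.3 ± 6.0 to 47.8 ± 9.2 RPKM (SD, n = 3 each), 1.89-fold, with a log2 fold change of 0.92 (SE 0.18, limma adjusted p = 0.00585). Without both samples numbered 2, an exclusion chosen after seeing the data, it was 0.96. In a bulk sample, more cells that express a gene and more RNA per cell cannot be told apart.

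PSMB9, or LMP2, replaces PSMB6 and does not cut after acidic residues as PSMB6 does. The gene lies at 6:32844136-32859851 on the plus strand. In shRNA-NC it stood at 5.04, 8.37 and 5.26 RPKM, and in shRNA-UBC9 at 11.5, 18.5 and 12.03 RPKM. The groups again did not overlap, with replicate 2 highest in each. From 6.22 ± 1.86 to 14.01 ± 3.9 RPKM (SD, n = 3 each), the difference was 2.25-fold, with a log2 fold change of 1.16 (SE 0.23, limma adjusted p = 0.00606). Its place among the DEGs was lost when shRNA-UBC9 replicate 2 alone was left out, where the log2 fold change was 0.95. Without both samples numbered 2 it was 1.18, and PSMB9 was again a DEG.

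PSMB8 and PSMB9 share part of their position with an antisense gene, PSMB8-AS1. Of the 3480 exonic bases of PSMB8 in GENCODE 44, 602 also belong to PSMB8-AS1 and 139 to PSMB9. PSMB9 shares 174 of its 3338 exonic bases there with PSMB8-AS1. The lengths behind the deposited values were 2006 bases for PSMB8, 3072 for PSMB9 and 1951 for PSMB8-AS1. The authors' gene models may therefore differ, and how many bases they share is not known. Whether the counting used strand is not given in the sources used here, so reads on shared bases cannot be assigned with certainty. PSMB8-AS1 was listed at 1.56, 3.39 and 2.83 RPKM in shRNA-NC and at 4.44, 6.17 and 4.21 RPKM in shRNA-UBC9. Its groups did not overlap, and its log2 fold change was 0.95 (SE 0.27, limma adjusted p = 0.0251). It was 0.78 (adjusted p = 0.0774) without shRNA-UBC9 replicate 2.

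PSMB10, also known as MECL-1, supplies the trypsin-like site of the immunoproteasome in place of PSMB7 and is encoded outside the MHC, at 16:67934506-67936864 on the minus strand. Unlike PSMB8 and PSMB9, it was not called. Its level was 16.3, 16.6 and 18.99 RPKM in shRNA-NC and 12.3, 20.7 and 15.9 RPKM in shRNA-UBC9. The shRNA-UBC9 samples held both the lowest and the highest of the 6 values, so the groups overlapped. The means were 17.3 ± 1.5 and 16.3 ± 4.2 RPKM (SD, n = 3 each), and the log2 fold change was -0.12, with a 95% interval from -0.52 to 0.28 (limma adjusted p = 0.632). It turned to 0.07 without shRNA-UBC9 replicate 1. The upper end of the interval is below the log2 fold changes of PSMB8 and PSMB9, and the difference between these genes was not tested. PSMB10 holds the same GAAAGCGAA near its start as PSMB8.

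The constitutive subunits PSMB5 and PSMB6 had the log2 fold changes nearest to 0 among the 8 genes. PSMB5, the chymotrypsin-like subunit, lies at 14:23016543-23035230 and gave 75.3, 81.2 and 70.7 RPKM in shRNA-NC against 77.8, 79.5 and 78.7 RPKM in shRNA-UBC9. All 3 shRNA-UBC9 values fell inside the shRNA-NC range. The log2 fold change was 0.06, with a 95% interval from -0.13 to 0.245 (limma adjusted p = 0.612). PSMB6, the caspase-like subunit at 17:4796144-4798502, gave 89.9, 89.9 and 85.2 RPKM against 83.3, 87.5 and 93.2 RPKM. Its groups overlapped, and its log2 fold change was -0.006, with a 95% interval from -0.19 to 0.18 (limma adjusted p = 0.959). The sign for PSMB5 was negative after quantile normalization (-0.01), and that for PSMB6 was positive in 4 of the alternative fits, each of which left out samples. The sign thus depended on the processing for PSMB5 and on the samples included for PSMB6.

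PSMB7, the trypsin-like constitutive subunit at 9:124353465-124415444, was the constitutive subunit that rose. It stood at 99.2, 113 and 93.1 RPKM in shRNA-NC and at 148, 133 and 119 RPKM in shRNA-UBC9. The groups did not overlap, and the highest shRNA-UBC9 value was that of replicate 1, not 2. The mean rose from 102 ± 10.2 to 133.5 ± 14.2 RPKM (SD, n = 3 each), 1.31-fold, with a log2 fold change of 0.39 (SE 0.11, limma adjusted p = 0.0254). This call was lost when any one of 4 samples was left out: shRNA-NC replicate 1 (0.37, adjusted p = 0.0764) or 3 (0.33, 0.0967), or shRNA-UBC9 replicate 1 (0.31, 0.0581) or 2 (0.39, 0.0698). It was also lost with no expression filter, where more genes are tested (adjusted p = 0.0628).

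PSME1 and PSME2 encode the alpha and beta subunits of PA28 and are neighbours on chromosome 14 (PSME1 at 14:24136163-24138967, plus strand, and PSME2 at 14:24143362-24147570, minus strand). PSME1 was measured at 71.8, 93.0 and 79.3 RPKM in shRNA-NC and at 89.6, 104 and 84.0 RPKM in shRNA-UBC9. The groups overlapped, and the log2 fold change of 0.19 (95% interval from -0.09 to 0.465) was not called (limma adjusted p = 0.26). PSME2 gave 28.9, 41.6 and 30.02 RPKM against 40.9, 53.4 and 43.3 RPKM. The overlap came from a single pair of values, shRNA-NC replicate 2 above shRNA-UBC9 replicate 1. Its log2 fold change was 0.46 (SE 0.16, 95% interval from 0.10 to 0.825), and its limma adjusted p of 0.0502 missed the threshold. The adjusted p was 0.012 without shRNA-NC replicate 2 (log2 fold change 0.63), 0.0405 without shRNA-UBC9 replicate 1 (0.54) and 0.0246 without both samples numbered 2 (0.51). It was 0.158 without shRNA-NC replicate 1 (0.37) and 0.157 without shRNA-NC replicate 3 (0.39). Without shRNA-UBC9 replicate 2 it was 0.155 (0.35), and without shRNA-UBC9 replicate 3 it was 0.0692 (0.50). Within a sample, PSME2 amounted to 40.3%, 44.7% and 37.9% of PSME1 in shRNA-NC and to 45.7%, 51.4% and 51.5% in shRNA-UBC9. These percentages depend on the lengths behind the RPKM values, which are described below.

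**Figure D2:**
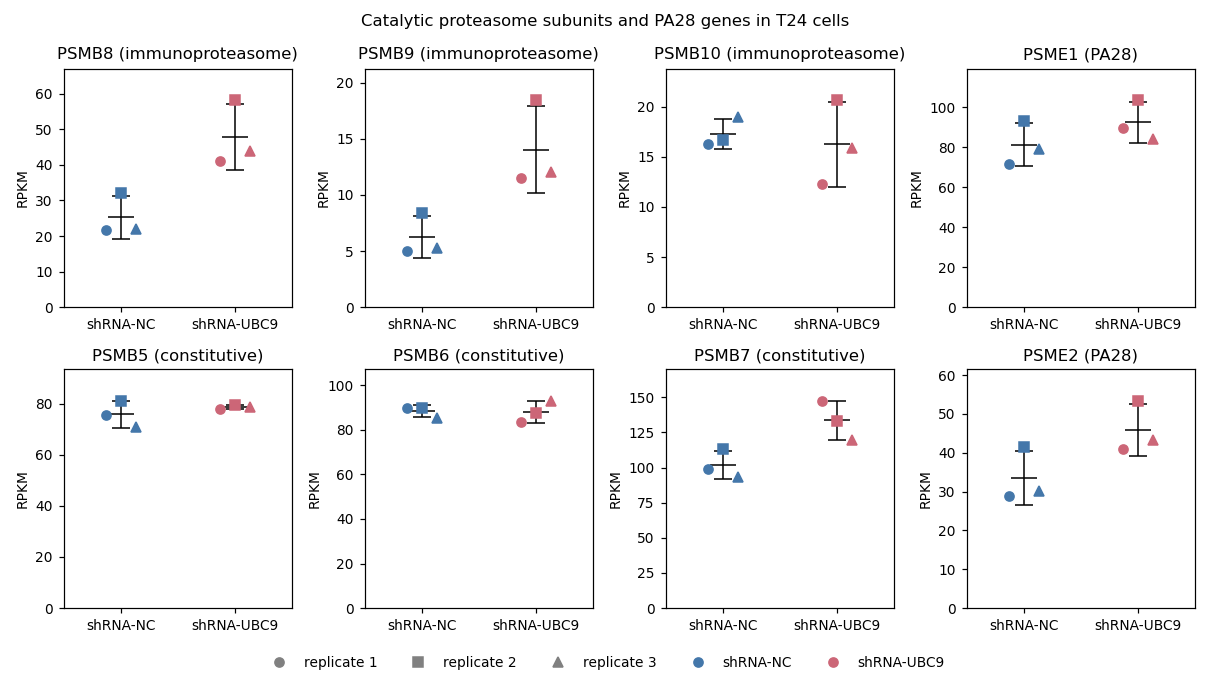
RPKM of each of the 8 genes in the 3 shRNA-NC samples (blue) and the 3 shRNA-UBC9 samples (red), with marker shapes for the replicate number, and lines for the mean and SD of 3 samples. The groups are apart for PSMB7, PSMB8 and PSMB9 and overlap for the other 5 genes, where 25.7% of all tested genes lay apart with shRNA-UBC9 higher and 25.4% with it lower, and the square of replicate 2 is the highest in both groups for PSMB5, PSMB8, PSMB9, PSME1 and PSME2.

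Each immunoproteasome subunit was then set against the constitutive subunit it replaces, since a ratio within a sample does not depend on how that sample was scaled. The level of such a ratio depends on the lengths by which the reads were divided, while its difference between groups does not. PSMB8 stood at 28.6%, 39.6% and 31.2% of PSMB5 in shRNA-NC and at 52.8%, 73.3% and 55.8% in shRNA-UBC9. The log2 ratio went from -1.61 ± 0.24 to -0.74 ± 0.25 (SD, n = 3 each), a difference of 0.87 or 1.83-fold, with no overlap between the groups (exact two-sided permutation test, p = 0.1, adjusted over the 3 pairs 0.15). With 3 against 3 samples, 0.1 is the smallest p this test can give. PSMB9 amounted to 5.60%, 9.31% and 6.18% of PSMB6 in shRNA-NC and to 13.8%, 21.1% and 12.9% in shRNA-UBC9. Its log2 ratio went from -3.87 ± 0.39 to -2.68 ± 0.38 (SD, n = 3 each), a difference of 1.18 or 2.27-fold, again with no overlap (exact permutation p = 0.1, adjusted 0.15).

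For the remaining pair the mean ratio was lower in shRNA-UBC9. PSMB10 amounted to 16.4%, 14.7% and 20.4% of PSMB7 in shRNA-NC and to 8.30%, 15.5% and 13.3% in shRNA-UBC9. The log2 ratio was -2.56 ± 0.24 and -3.06 ± 0.47 (SD, n = 3 each), a difference of -0.51 or 0.704-fold, and the groups overlapped (exact permutation p = 0.2, adjusted 0.2). Left without shRNA-UBC9 replicate 1, the difference was -0.24. None of the 3 pairs passed a threshold of 0.05, which this number of samples cannot reach.

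Summed over the 3 pairs, PSMB8, PSMB9 and PSMB10 supplied 13.95%, 16.75% and 15.7% of the RPKM of the 6 catalytic genes in shRNA-NC and 17.35%, 24.5% and 19.8% in shRNA-UBC9. The means were 15.5% ± 1.4 and 20.5% ± 3.6 (SD, n = 3 each), a difference of 5.08 percentage points that is given as a description. Without shRNA-UBC9 replicate 2 the difference was 3.10 points. The constitutive genes supplied most of the RPKM in every sample. Their sum was 266 ± 17.6 RPKM in shRNA-NC and 300.2 ± 8.8 RPKM in shRNA-UBC9, against 48.8 ± 7.5 and 78.0 ± 17.2 RPKM for the immunoproteasome subunits.

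**Figure D3:**
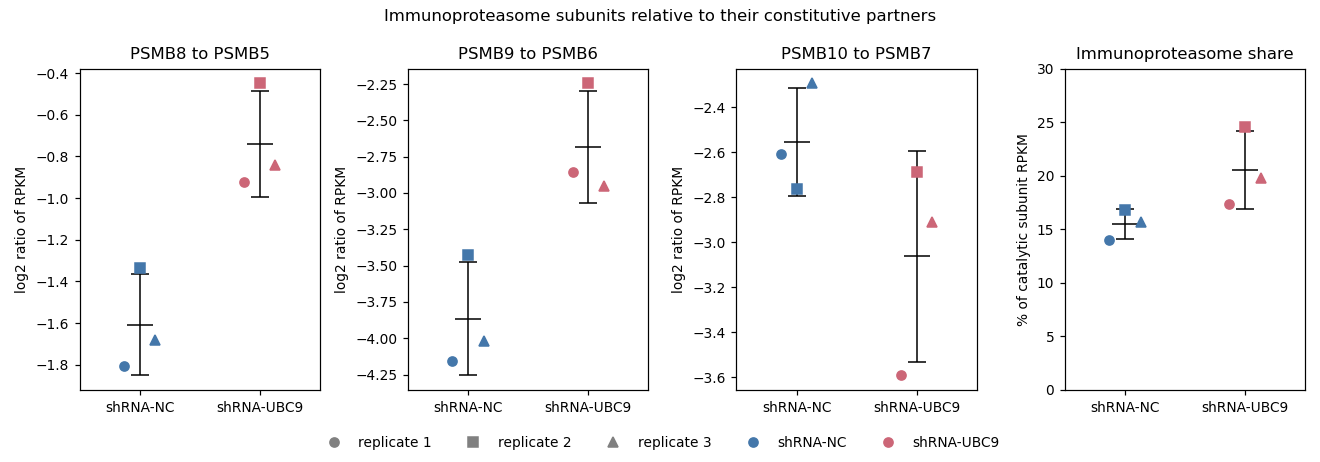
log2 ratio of the RPKM of each immunoproteasome subunit to that of its constitutive partner in each of 6 samples, and the share of the RPKM of the 6 catalytic genes supplied by PSMB8, PSMB9 and PSMB10, in percent, with lines for the mean and SD of 3 samples. The ratios of PSMB8 and PSMB9 are apart between the groups (differences of 0.87 and 1.18), the ratio of PSMB10 to PSMB7 overlaps, and each ratio panel has its own axis range.

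On the RPKM scale, the order of levels in shRNA-NC was PSMB7, PSMB6, PSME1, PSMB5, PSME2, PSMB8, PSMB10 and PSMB9, from 102 down to 6.22 RPKM. The ranges of PSMB6, PSME1 and PSMB5 overlapped from one to the next, as did those of PSME2 and PSMB8. In shRNA-UBC9 the order was PSMB7, PSME1, PSMB6, PSMB5, PSMB8, PSME2, PSMB10 and PSMB9, from 133.5 down to 14.01 RPKM. There the ranges of PSME1 and PSMB6, of PSMB8 and PSME2, and of PSMB10 and PSMB9 overlapped.

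The order of levels depended on the length by which the reads were divided. The lengths behind the deposited values, recovered from the steps of RPKM, were 1448 to 2006 bases for 6 of the 8 genes but 3072 bases for PSMB9 and 3465 bases for PSME2. The canonical transcripts of these 2 genes are 1017 and 793 bases long. On canonical lengths, PSMB9 stood at 18.8 ± 5.6 RPKM in shRNA-NC and 42.3 ± 11.7 RPKM in shRNA-UBC9, above PSMB10 at 30.9 ± 8.0 RPKM in the latter group. PSME2 stood at 146 ± 30.6 RPKM in shRNA-NC, close to PSME1 at 150.2 ± 19.9 RPKM, and at 200.4 ± 29.1 RPKM in shRNA-UBC9. PSMB6 stood at 155.2 ± 4.8 RPKM in shRNA-NC and 154.6 ± 8.7 RPKM in shRNA-UBC9. The percentages given above for PSMB9 of PSMB6 and for PSME2 of PSME1 are therefore larger on canonical lengths. The immunoproteasome share was then 17.1% ± 1.6 and 22.9% ± 4.0. Fold changes between groups do not depend on the length.

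Replicate 2 held the highest value in both groups for 5 of the 8 genes, PSMB5, PSMB8, PSMB9, PSME1 and PSME2, and for 14.8% of all tested genes. On the log2 scale PSMB9 in replicate 2 exceeded its group's mean by 0.46 in shRNA-NC and by 0.43 in shRNA-UBC9. For PSMB8 these deviations were 0.37 and 0.30, and for PSME2 0.33 and 0.23. TAP1 deviated in the same samples by 0.32 and 0.51, and NLRC5 by 0.21 and 0.57. The part of this pattern in the results was not tested. PSMB8 and PSMB9 were called higher in each fit that left out 1 sample, and also without both samples numbered 2.

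The genes whose log2 values over the 6 samples ran most like that of PSMB8 were PSMB9 (Pearson's r 0.999), PDCD5 (0.995) and WDR61 (0.995). For PSMB9 they were PSMB8 (0.999), PSMD12 (0.9945) and WDR61 (0.993). For PSMB10 they were SLC25A30 (0.979), THAP12 (0.979) and CCDC47 (0.973), none of them a member. These values rank 12428 genes over 6 points that share the same libraries, and PSMB8 and PSMB9 share 139 exonic bases, so they are given as a description.

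**Figure D4:**
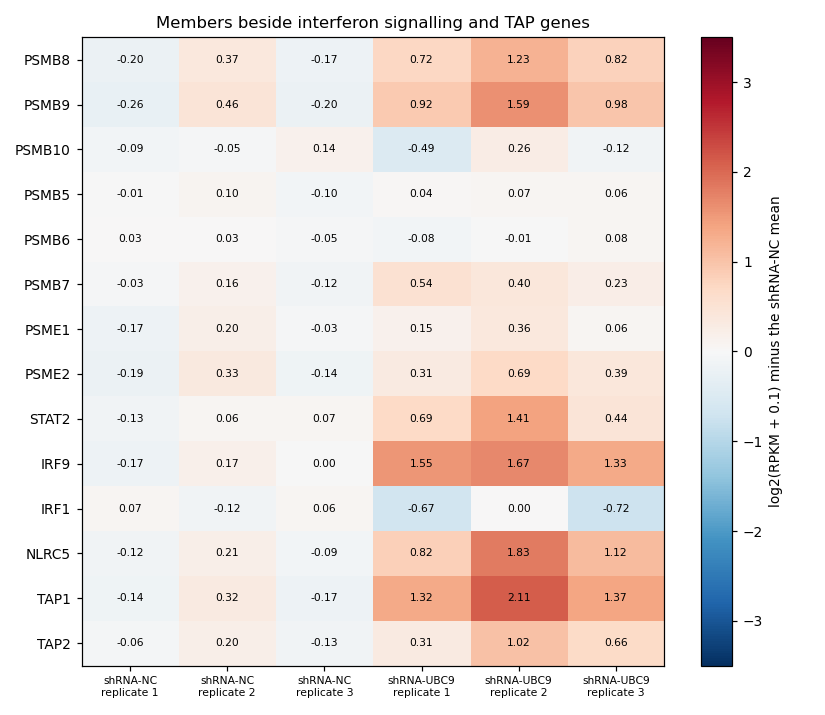
log2(RPKM + 0.1) of the 8 members and of 6 interferon-signalling and TAP genes in each of 6 samples, minus the mean of the 3 shRNA-NC samples. In shRNA-UBC9 replicate 2, PSMB8 (1.23) and PSMB9 (1.59) are at their highest together with NLRC5 (1.83) and TAP1 (2.11), while PSMB5 and PSMB6 stay within 0.102 of the shRNA-NC mean in all 6 samples.

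Transcriptional regulators known to act on immunoproteasome genes or in interferon signalling were examined beside them. The counts of each list below stand against 18.8% of all tested genes called higher and 18.0% called lower. Of 4 genes, 3 were called higher and 0 lower in the limma fit, with 1 lower (IRF1) at an unadjusted p below 0.05. IRF9, a DNA-binding subunit of the type I interferon complex, rose from 6.96 to 20.1 RPKM (log2 fold change 1.52, limma adjusted p = 0.000109). NLRC5, the transactivator of MHC class I genes and of PSMB9, rose from 1.80 to 4.61 RPKM (1.26, adjusted p = 0.00468), and STAT2 by 0.85 on the log2 scale (adjusted p = 0.0182). Without shRNA-NC replicate 1 the value for STAT2 was 0.785 (adjusted p = 0.0647). IRF1, which binds the promoter shared by PSMB9 and TAP1, was not called. It was measured at 7.56, 6.62 and 7.52 RPKM in shRNA-NC and at 4.50, 7.24 and 4.35 RPKM in shRNA-UBC9, with a log2 fold change of -0.46 (limma adjusted p = 0.0834). Without shRNA-UBC9 replicate 2, 1 of the 4 regulators was called lower, where 1572 of all tested genes were.

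Of the 5 genes for peptide transport and trimming, 2 were called higher and 0 lower in the limma fit, also at an unadjusted p below 0.05. TAP1 rose from 12.1 to 37.7 RPKM (log2 fold change 1.60, limma adjusted p = 0.00123), more than PSMB9, with which it shares a start region, and no exonic bases. The difference between the 2 genes was not tested. TAP2 rose from 12.4 to 20.02 RPKM (0.67, adjusted p = 0.0191), a call lost without shRNA-NC replicate 1 (adjusted p = 0.0636) or 3 (adjusted p = 0.071). TAPBP, ERAP1 and ERAP2, with log2 fold changes of 0.05, 0.22 and 0.325, did not pass. The windows of all 5 genes held GAAANNGAA, including those of the 3 that did not pass. Of the regulators above, 0 of the 3 with a window held it. In the lists below, 2 of 9 structural 20S subunits with a window and 1 of 18 genes of the regulatory particle did. So did 0 of 3 other activators and inhibitor, 2 of 8 assembly chaperones and 1 of 4 genes of the route to constitutive subunits. The PSMB11 window did not. Among the tested genes with a promoter window, 25.2% of the 806 with GAAANNGAA were called higher and 17.6% of the 8374 without it. For GGGANTTTC these shares were 31.9% of 144 and 18.1% of 9036, and for TTCNNNGAA 22.8% of 779 and 17.9% of 8401. For TGACNNNGC they were 17.8% of 1782 and 18.4% of 7398. The part of any motif in these shares was not tested.

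Of the 11 structural 20S subunits, the alpha subunits and the beta subunits without an active site, 4 were called higher and 1 lower, with a median log2 fold change of 0.13 against 0.005 over all tested genes. PSMA6 (0.50, limma adjusted p = 0.00316), PSMB2 (0.385, adjusted p = 0.011), PSMA5 (0.365, adjusted p = 0.0154) and PSMB1 (0.30, adjusted p = 0.0145) were higher. PSMA1 fell by 0.47 on the log2 scale (adjusted p = 0.0079). Without shRNA-NC replicate 3 the count called higher was 1, and without shRNA-UBC9 replicate 2 it was 2. The count among all tested genes was 1632 and 1518 in these fits, against 2339 in the main fit.

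In the regulatory particle that binds ubiquitin chains and unfolds substrates, 3 of 19 genes were called higher and 1 lower, with a median of 0.11, and neither count exceeds the share among all tested genes (18.8% higher and 18.0% lower). The deubiquitinase PSMD14 (0.44, limma adjusted p = 0.0118), the ubiquitin receptor ADRM1 (0.33, adjusted p = 0.0256) and PSMD13 (0.30, adjusted p = 0.0187) were higher. The ATPase PSMC3 fell by 0.30 (adjusted p = 0.0252), a call lost without shRNA-NC replicate 1 or 2 or shRNA-UBC9 replicate 1 or 2 (adjusted p from 0.0514 to 0.0809). The count called higher in this list was 0 without shRNA-NC replicate 3, and 1 without shRNA-UBC9 replicate 2 or 3. Over all tested genes the count was 1632, 1518 and 1942 in these fits, against 2339 in the main fit. PSME3, PSME4 and PSMF1, the other activators and an inhibitor, had log2 fold changes from -0.17 to 0.13, and 0 of the 3 passed in limma, also at an unadjusted p below 0.05. PSMB11, the subunit of thymic epithelium, reached at most 0.014 RPKM and was not tested.

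Of 9 assembly chaperones 1 was called higher and 0 lower in limma, with 2 lower (PSMD5 and PSMD10) at an unadjusted p below 0.05 and 2 called lower after median scaling. Median scaling gave 2574 of all tested genes called lower, against 2237 in the main fit. POMP, which helps the core mature and is needed for immunoproteasome assembly, rose from 50.3 to 70.4 RPKM (log2 fold change 0.48, limma adjusted p = 0.00819), while the list's median was -0.07. Without both samples numbered 2 its log2 fold change was 0.36 (adjusted p = 0.062). In the route by which cells raise transcription of constitutive subunit genes, the transcription factors NFE2L1 (56.9 to 83.5 RPKM, 0.55, adjusted p = 0.00128) and NFE2L2 (0.40, adjusted p = 0.0211) were higher. DDI2, the protease that releases NFE2L1 from the endoplasmic reticulum, fell from 5.26 to 2.67 RPKM (log2 fold change -0.97, adjusted p = 0.00158). NGLY1 (-0.14) was not called, and the call of NFE2L2 was lost without shRNA-NC replicate 1 (adjusted p = 0.0698) or shRNA-UBC9 replicate 2 (adjusted p = 0.07).

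**Figure D5:**
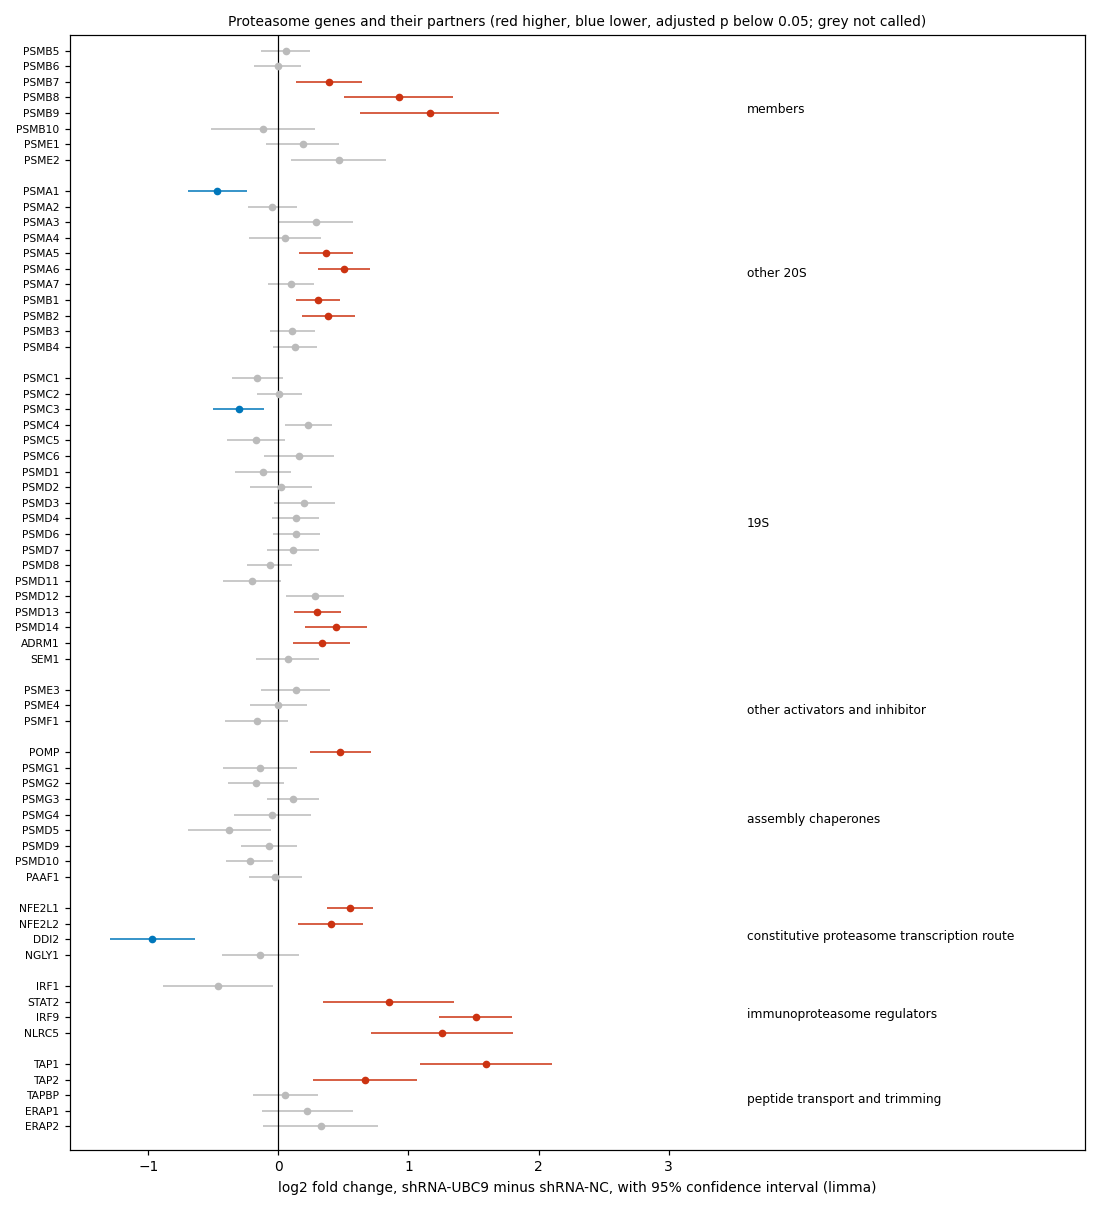
log2 fold change (shRNA-UBC9 minus shRNA-NC) with its 95% interval from limma for the 8 members and the listed proteasome and partner genes, grouped by list, with genes called higher in red, lower in blue and not called in grey. PSMB8 (0.92) and PSMB9 (1.16) stand out among the proteasome subunits, whose other values lie between -0.47 and 0.50, and TAP1 (1.60) has the highest value of all genes plotted.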

How the data were processed

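PolyA RNA from 3 shRNA-NC and 3 shRNA-UBC9 T24 samples had been sequenced by the study on an Illumina instrument. The authors removed adaptors, aligned the reads to GRCh38 (hg38) in the CLC Biomedical Genomics Workbench 4 at default settings, and deposited RPKM per gene for each sample. The annotation release, the treatment of reads with several matches and of alternate MHC haplotypes, and the use of strand are not given in the sources used here.

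Samples were grouped by their labels. The deposited RPKM values were analysed as log2(RPKM + 0.1) in limma 3.58.1 (R 4.3.3), with eBayes and its trend option and Benjamini-Hochberg adjustment over the genes with at least 0.5 RPKM in at least 3 of 6 samples. Fold changes on this scale understate those of low genes. Ratios within samples were tested by exact permutation (Python 3.11.15). The fit was checked on simulated data. Alternatives covered the pseudocount (0.01 and 1), the filter, quantile normalization, median scaling, the trend option, a replicate block and leaving out samples.

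Depth was recovered from the smallest RPKM steps of single-exon genes, whose GENCODE 44 lengths are known, and whole reads were then obtained for all 8 members (within 0.0001 of a whole number, tolerance 0.05). The lowest was 462 reads for PSMB9 in shRNA-NC replicate 1, a 95% Poisson interval of 4.59 to 5.52 RPKM. The highest was 9515 reads. Such intervals cover counting error only. No count test was run. Pseudogene entries for PSMB7 and PSME2 (3 in all) were listed at 0.

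Positions came from GENCODE 44, and promoter windows from RefSeq (GRCh38.p14). Printed stretches hold at most 30 bases of an annotated UTR. Members and lists were chosen with earlier results of these data known. A few genes of the planned checks and lists are not reported here. The text names all 8 members, PSMB8-AS1, up to 6 called genes of each list, the genes most like PSMB8, PSMB9 and PSMB10, and list genes that were not called where their list is described.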

Additional observations from a re-analysis of the deposited data

How the results depend on the processing

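PSMB8 and PSMB9 were called higher in every alternative fit, with log2 fold changes from 0.77 to 1.11 and from 0.95 to 1.39 when 1 sample was left out. PSMB7 was not called with no expression filter (0.39) or without both samples numbered 2 (0.47), and ranged from 0.31 to 0.47 when 1 sample was left out. PSME2 was called at RPKM of at least 1 in every sample (0.46, adjusted p = 0.0428), after quantile normalization (0.45, 0.0474), with a replicate block (0.46, 0.0167) and without both samples numbered 2 (0.51), and ranged from 0.35 to 0.63 when 1 sample was left out. In the other alternative fits on all 6 samples PSME2 was not called. Its limma adjusted p there ran from 0.0505 (pseudocount 1) to 0.109 (no expression filter). PSMB5 was -0.012 after quantile normalization. PSMB6 was 0.009 without both samples numbered 2 and from -0.048 to 0.032, and PSMB10 from -0.305 to 0.071, when 1 sample was left out. The number of DEGs among the members then ranged from 0 to 2. For changes other than that with no filter, which tests more genes, the cause was not tested. Leaving out both samples numbered 2 and using canonical lengths were chosen after seeing the data.

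Over all tested genes, deviations from the group mean correlated at -0.37, 0.07 and -0.17 between samples of the same number and at up to 0.53 between others. For each gene the deviations of a group's 3 samples sum to 0, so these correlations cannot all be positive. They cannot decide whether replicate numbers pair the samples, which no source states. With the replicate block, PSMB7, PSMB8 and PSMB9 stayed called and PSME2 was added (4 members higher), and 1 gene instead of 3 was called higher in the regulatory particle list, and the calls of PSMB1, PSMC3, PSMD13, ADRM1 and NFE2L2 were lost. Among all tested genes 1749 were called higher and 1625 lower with the block, against 2339 and 2237 in the main fit. Of the remaining values under alternatives, for other genes and lists, 450 kept their side of the threshold or, for counts, stayed within 1.5 times, 43 lost their call in the same direction and 32 counts moved by more than 1.5 times. Among all tested genes the number called higher was 1222 and lower 1106 without both samples numbered 2. Searched on the forward strand only, 2 members held GAAANNGAA, where 4.96% of all genes with a window did. On both strands 4 members held it, where 9.86% of all genes with a window did. With 28200000 to 36100000 reads and 3 samples a group, the number of samples sets the smallest p of the ratio tests.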

Other observations

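Within the groups, with each gene's log2 values taken as deviations from its group mean, the tested genes that ran most like PSMB8 over the 6 samples were HSPH1 (Pearson's r 0.9989), RP11-35G9.3 (0.9977) and USP4 (0.9975). For PSMB9 they were USP4 (0.9993), GLA (0.9976) and RRP36 (0.9972), and for PSMB10 MBLAC2 (0.9964), THAP12 (0.9937) and MRPL9 (0.9928). Of these genes, RP11-35G9.3 (log2 fold change 0.81, limma adjusted p = 0.0482) was called higher in shRNA-UBC9 and MRPL9 (-0.26, limma adjusted p = 0.0296) lower, and the others were not called. These values rank 12428 genes over 6 points, and they are descriptions of these libraries. Since the deviations sum to 0 within each group, fewer than 6 of the points are free, which makes high correlations easier to reach.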
